A study of Mus musculus with 6 samples.

Results

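The mir-26 family was read in the small RNA sequencing of vesicles released by myoblasts, of osteoblasts and of bone marrow cells. Its members were taken by name, as the entries equal to mir-26a-1, mir-26a-2 and mir-26b, which are 3 of the 1006 miRNA precursor entries in the authors' table. Myo-EVs are the extracellular vesicles collected by ultracentrifugation from the medium of the mouse myoblast line C2C12. FFSS-Myo-EVs come from C2C12 cells kept for 48 hr under fluid flow shear stress (FFSS) on an orbital shaker. Each vesicle group had 2 libraries, while primary osteoblasts (OB) and bone marrow cells (BM) of mice had 1 each, all of them made from 90 ng of total RNA. The comparison of FFSS-Myo-EVs with Myo-EVs asked which miRNAs change in the vesicles when the myoblasts are sheared, and OB and BM served as the cells of bone that might receive them.

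The labels gave no stress ("control") for OB, BM and Myo-EVs, and fluid flow shear stress for FFSS-Myo-EVs. For all 6 libraries, C2C12 vesicles included, they listed a background of 81.25% C57BL/6J with 18.75% 129/SvJ. An age of 8 to 10 weeks was given for OB and BM, whereas the methods describe osteoblasts grown from the calvariae of newborn male mice, pooled over several animals, and marrow from 1 male mouse. The culture text of the labels was worded alike for every library and described hormone treatments in place of FFSS. All EVs came from 1 cell line, grown in medium whose serum had been depleted of vesicles.

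A miRNA is cut from a hairpin precursor and guides silencing proteins to mRNAs, mainly by pairing of its seed, bases 2 to 8 of the mature strand. Mammals carry the mir-26 family in introns of the Ctdsp genes, which encode small phosphatases of the RNA polymerase C-terminal domain. In muscle, miR-26a is known to rise as myoblasts differentiate and to repress Ezh2, the histone methyltransferase of the Polycomb complex, and in cells of the osteoblast lineage it is known to act on bone formation.

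The mature sequences are shown first because they decide which reads can be told apart in the counts. They were taken from RefSeq for GRCm38.p6, in which all 3 members were matched, and are written 5′ to 3′ with the seed in capitals.
miR-26a-5p (from mir-26a-1 and mir-26a-2): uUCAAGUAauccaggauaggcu
miR-26b-5p: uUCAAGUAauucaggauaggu
miR-26a-1-3p: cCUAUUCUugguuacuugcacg
miR-26a-2-3p: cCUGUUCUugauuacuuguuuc
miR-26b-3p: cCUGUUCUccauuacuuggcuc

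The 5p strand of mir-26a-1 and that of mir-26a-2 were identical over all 22 bases. miR-26b-5p had 21 bases and, counted from 1 at the 5′ end and aligned without gaps, differed from miR-26a-5p by C11U and C21U, both outside the seed. The seed UCAAGUA was found in these 3 genes, as 2 distinct sequences, among the 1738 mature miRNAs of the RefSeq table, and 1 other, miR-6371, shared bases 2 to 7 only. On the 3p side all 3 strands differed, mir-26a-1 from mir-26a-2 at 6 bases. miR-26b-3p differed from miR-26a-2-3p at 4 of 22 bases and had its seed, whereas it differed from miR-26a-1-3p at 8 bases.

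The hairpins, with the 5p strand in capitals, show where the precursors differ around that strand.
mir-26a-1: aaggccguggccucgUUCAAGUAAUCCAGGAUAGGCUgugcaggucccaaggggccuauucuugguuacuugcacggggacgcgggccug
mir-26a-2: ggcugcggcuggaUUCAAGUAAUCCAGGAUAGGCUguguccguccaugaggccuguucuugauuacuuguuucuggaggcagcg
mir-26b: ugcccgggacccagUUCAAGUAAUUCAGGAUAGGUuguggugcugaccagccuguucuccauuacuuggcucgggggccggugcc

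The longest stretch common to mir-26a-1 and mir-26a-2 was 25 bases, which is the 5p strand and the bases next to it. With mir-26b the longest common stretch was 11 bases for mir-26a-1 and 10 bases for mir-26a-2. On GRCm38, mir-26a-1 lies on the plus strand of chromosome 9 at 119031796 to 119031885, in an intron of all 3 annotated transcripts of Ctdspl that span it. mir-26a-2 lies on the plus strand of chromosome 10 at 126995530 to 126995613, in intron 5 of the coding transcript of Ctdsp2. Only 1 base of mir-26a-2 falls in an exon of 2 shorter Ctdsp2 transcripts. mir-26b lies on the plus strand of chromosome 1 at 74394310 to 74394394, in intron 4 of the coding transcript of Ctdsp1. Gene models were those of GENCODE M21.

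The total count was 5181296 in OB, 6092460 in BM, and 2414132 to 3029524 in the EV libraries. The normalized expression value, the authors' second column, was the count times 1 constant per library. As a check of the labels, the summed normalized value of 4 leukocyte miRNAs (mir-223, mir-142a, mir-150 and mir-342) was 27116.0 in BM, 719.6 in OB and 67.1 to 83.0 in EVs. That of 6 mesenchymal miRNAs (the mir-199 entries, mir-214, mir-143 and mir-145a) was 536435.8 in OB and 22199.3 in BM, but it was also 335111.9 to 437712.5 in EVs, so that list separated OB from BM and not from the myoblast vesicles. Of the 6 muscle entries, mir-206 had a normalized value of 1968.5 to 2610.0 in EVs, 91.7 in OB and 7.9 in BM. For mir-133b it was 12.2 to 45.2 in EVs, 0.6 in OB and 0.0 in BM. The mir-133a-1 and mir-133a-2 entries had 4.4 to 20.4 in EVs, not apart from 9.4 and 8.3 in OB. Both mir-1a entries were highest in BM, at 30.6 and 31.4, and mir-1a-1 had no count in any EV library. Only mir-206 and mir-133b thus set EVs apart from both cells. Nothing in the labels or methods says that the 2 libraries of a group came from separate cultures. The spread between these libraries, on which the p-values below rest, may thus be technical.

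All 3 members were well measured in every library, and the order of the conditions was the same for each on the authors' scaling: BM highest, then OB, FFSS-Myo-EVs and Myo-EVs. The count of mir-26a-1 was 35156 in OB, 56068 in BM, 7378 and 5570 in Myo-EVs, against 12530 and 10689 in FFSS-Myo-EVs. In normalized values this was 19414.9 in OB, 22269.2 in BM, 7406.2 and 6671.1 in Myo-EVs, against 12482.4 and 11838.2 in FFSS-Myo-EVs. Both vesicle groups lay below both cells, and the Myo-EV and FFSS-Myo-EV libraries did not overlap. Its rank among the 1006 entries was 12 for BM, 26 for OB, 28 and 27 for FFSS-Myo-EVs, then 39 and 45 for Myo-EVs. From the lowest library to BM it ranged 3.34-fold.

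The entry mir-26a-2 repeated these values. Its normalized value was 19487.2 in OB, 22393.1 in BM, 7433.3 and 6697.4 in Myo-EVs, with 12508.3 and 11838.2 in FFSS-Myo-EVs. The count of mir-26a-2 exceeded that of mir-26a-1 by 131 in OB, 312 in BM, 27 and 22 in Myo-EVs, but 26 and 0 in FFSS-Myo-EVs, at most 0.556% of the count. Among the 17 names whose numbered copies all had at least 100 counts in every library, mir-26a had the closest copies, with a ratio of at most 1.01 in every library, and 8 of the 17 were within 10%. Since the 5p strand is the same and the treatment of reads matching several precursors is not stated, the entries mir-26a-1 and mir-26a-2 cannot be told apart here as separate genes, and they were not counted as independent observations.

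For mir-26b, the count was 13596 in OB, 40433 in BM, 3223 and 2012 in Myo-EVs, against 4660 and 4168 in FFSS-Myo-EVs. Its normalized value was 7508.4 in OB, 16059.2 in BM, 3235.3 and 2409.7 in Myo-EVs, against 4642.3 and 4616.1 in FFSS-Myo-EVs. BM stood apart from the other 5 libraries, and the range from the lowest library to BM was 6.66-fold, wider than for mir-26a-1. Its rank was 22 for BM, 46 for OB, 60 for both FFSS-Myo-EV libraries, then 69 and 82 for Myo-EVs.

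**Figure D1:**
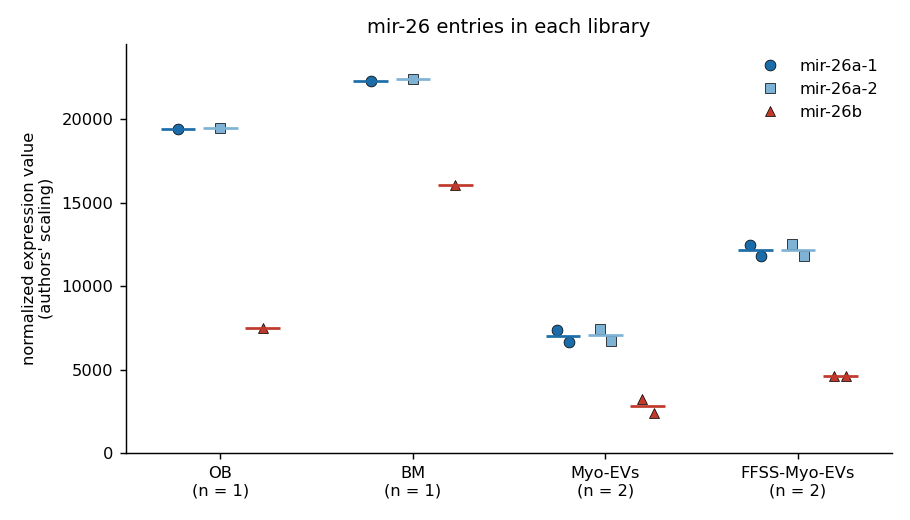
Normalized expression value (authors' scaling, linear axis from 0) of mir-26a-1, mir-26a-2 and mir-26b in OB, BM, Myo-EVs and FFSS-Myo-EVs, with a point for each library and a line at the group mean. The mir-26a entries lie on each other in every group, the FFSS-Myo-EV points lie above the Myo-EV points for each entry, and mir-26b is high in BM, at 16059.2, against 7508.4 in OB.

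Counting error was smaller than the spread between the Myo-EV libraries. The 95% exact Clopper-Pearson interval of mir-26a-1 on the normalized scale was 7238 to 7577 in the first Myo-EV library and 6497 to 6848 in the second, which do not overlap. For mir-26b they were 3125 to 3349 and 2306 to 2517, also apart. The mir-26b intervals of the FFSS-Myo-EV libraries, 4510 to 4777 and 4477 to 4758, did overlap, so the SD of 18.5 in that group was smaller than the counting error of a single library. In OB and BM, with 1 library each, the interval of mir-26a-1 was 19210 to 19620 and 22090 to 22450, and that of mir-26b was 7383 to 7636 and 15900 to 16220. Such intervals leave out all but counting error, and reads copied by PCR without molecular identifiers do not stand for independent molecules.

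FFSS-Myo-EVs had a higher level of all 3 mir-26 entries than Myo-EVs. In normalized values, mir-26a-1 averaged 12160.3 ± 455.5 in FFSS-Myo-EVs against 7038.6 ± 519.8 in Myo-EVs (SD, n = 2), a ratio of 1.73. For mir-26a-2 the means were 12173.2 ± 473.8 and 7065.4 ± 520.4 (SD, n = 2), a ratio of 1.72. The mean of mir-26b was 4629.2 ± 18.5 in FFSS-Myo-EVs and 2822.5 ± 583.8 in Myo-EVs (SD, n = 2), a ratio of 1.64. More vesicles that carry a miRNA and more of it in each vesicle cannot be told apart in such bulk RNA, nor can a higher level and a loss of other small RNAs.

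For the test, edgeR's quasi-likelihood fit was run on the EV counts after TMM scaling, over all 354 entries that averaged a normalized value of 10 or more, and p-values were adjusted over them by Benjamini-Hochberg. On this scale the log2 fold change of mir-26a-1 was 0.66 (SE 0.144, 95% interval 0.38 to 0.95), with an adjusted p of 5.65e-05. That of mir-26b was 0.58 (SE 0.13, 95% interval 0.33 to 0.84), with an adjusted p of 8.63e-05. The mir-26a-2 entry, not independent of mir-26a-1, gave 0.66 (SE 0.144) with an adjusted p of 6.24e-05. The fit had infinite prior degrees of freedom, so these SEs, intervals and p-values rest on a spread fitted over all tested entries. They do not measure the spread of a single member between its own libraries. The SE of mir-26b was below that of mir-26a-1, though its Myo-EV libraries lay further apart relative to their level. All 3 members were called higher, whereas 43 of the 354 tested entries, 12.1%, were, and 65, or 18.4%, were called lower. On the TMM scale the folds were 1.58 for mir-26a-1 and 1.5 for mir-26b, below the ratios above, since the authors' scaling lies 0.12 higher in FFSS-Myo-EVs on the log2 scale. With the authors' scaling in the same edgeR test, 54 entries were called higher and 39 lower.

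Both FFSS-Myo-EV libraries lay above both Myo-EV libraries for all 3 members on the authors' scaling, as they did for 36.7% of the tested entries. After TMM scaling to a total of 1000000 counts, mir-26a-1 had 2744.4 and 2280.6 in Myo-EVs against 4225.7 and 3731.0 in FFSS-Myo-EVs. On the same scale mir-26b had 1198.9 and 823.8 in Myo-EVs against 1571.6 and 1454.8 in FFSS-Myo-EVs. The groups stayed apart for all 3, which held for 26.0% of entries on this scale. Taken alone, each member had p = 0.333 in a two-sided exact permutation test, the smallest p that 2 libraries against 2 allow. Without the first FFSS-Myo-EV library, edgeR's call was lost for all 3, with a log2 fold change of 0.57 and an adjusted p of 0.0705 for mir-26a-1, 0.56 and 0.0745 for mir-26a-2, and 0.52 and 0.0588 for mir-26b. That library left out, 44 entries were called in all in place of 108, and 45 without the second FFSS-Myo-EV library.

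Over all 354 entries the log2 fold change of mir-26a-1 ranked 42 and that of mir-26b 54, in a range from -2.04 to 2.89, and the entries ranked above mir-26b, the mir-26a entries aside, were less abundant than it. By mean level in the EVs, mir-26a-1 ranked 36 and mir-26b 68 of the tested entries. Of the 68 entries at or above the level of mir-26b, its own included, 9 were called higher and 17 lower, and their median log2 fold change was 0.01. Within these 68, a limit set by the level of mir-26b itself, mir-26a-1, mir-26a-2 and mir-26b ranked 1, 2 and 3 by log2 fold change, followed by let-7f-2 at 0.54 (SE 0.214). These ranks depend on that limit. Shortly below it, at mean log2 levels of 10.05 and 10.15 against 10.30 for mir-26b, mir-3473f had 0.86 and mir-224 had 0.61. A slightly lower limit would put mir-3473f first and mir-224 above mir-26b. The share of all counts taken by mir-26a-1 and mir-26b together was 0.369% and 0.314% in Myo-EVs against 0.567% and 0.559% in FFSS-Myo-EVs, beside 0.941% in OB and 1.58% in BM.

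**Figure D2:**
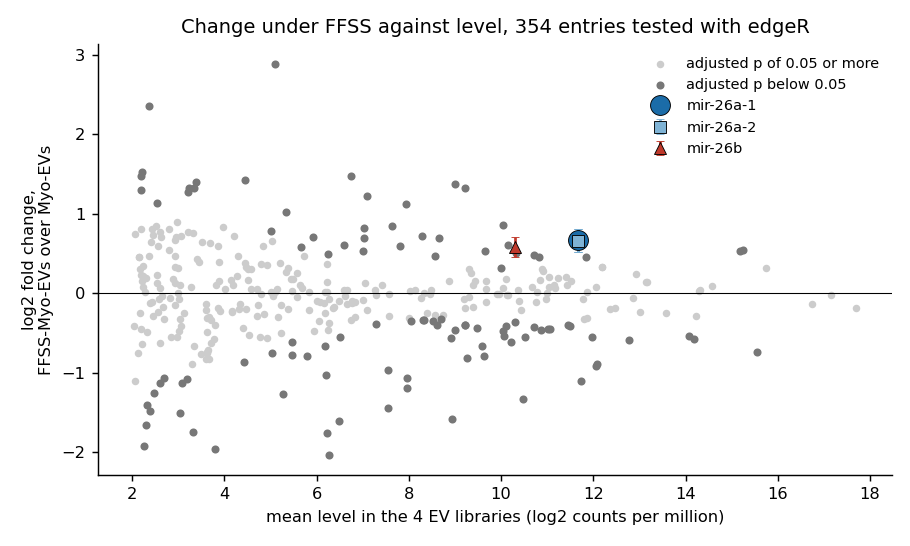
Log2 fold change of FFSS-Myo-EVs over Myo-EVs (edgeR) against the mean level in the 4 EV libraries (log2 of counts scaled to a total of 1000000) for the 354 tested entries, with called entries in dark grey and bars of 1 SE on the members. The square of mir-26a-2 lies on the circle of mir-26a-1, and both lie with mir-26b above 0, at 0.66 and 0.58, among the more abundant entries.

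**Figure D3:**
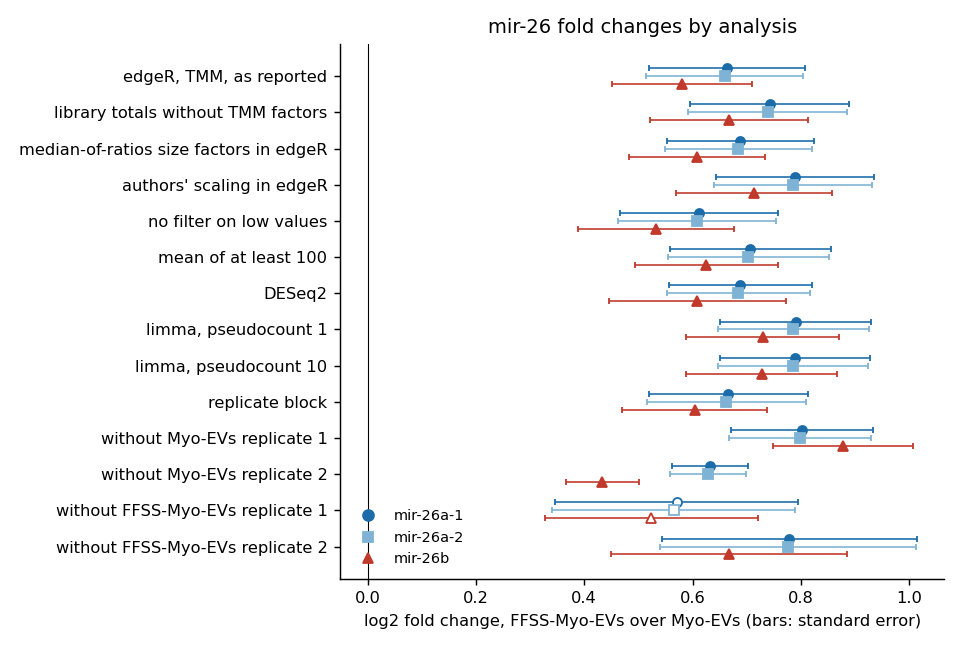
Log2 fold change of each member (points, with bars of 1 SE) as reported and under each alternative analysis or with 1 EV library left out. Filled symbols had an adjusted p below 0.05 and open symbols did not. All values lie above 0, and the open symbols are those without the first FFSS-Myo-EV library.

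Some miRNAs of blood cells and serum moved with the same groups and others did not. The summed normalized value of 3 miRNAs known from serum and red cells (mir-122, mir-451a and mir-144) was 9.6 to 13.0 in Myo-EVs and 41.0 to 47.8 in FFSS-Myo-EVs, and mir-144 had no count in 1 Myo-EV library. The leukocyte list summed to 67.1 to 75.3 in Myo-EVs and 77.8 to 83.0 in FFSS-Myo-EVs, but its main part, mir-342, was at 67.3 and 61.1 in Myo-EVs against 56.8 and 65.3 in FFSS-Myo-EVs. Of the others in that list, mir-223 had 1 and 0 counts in Myo-EVs against 7 and 5 in FFSS-Myo-EVs. The counts of mir-142a were 4 and 1 in Myo-EVs against 7 and 8 in FFSS-Myo-EVs, whereas mir-150 overlapped between the groups. The 4 erythroid entries summed to 162.6 to 230.0 in Myo-EVs and 228.2 to 239.1 in FFSS-Myo-EVs. Of these, mir-486a (log2 fold change -0.04, adjusted p = 0.942) and mir-486b (0.05, adjusted p = 0.935) did not pass edgeR's test. That test called mir-451a higher (2.36, adjusted p = 6.79e-05), at 3 and 4 counts in Myo-EVs against 26 and 16 in FFSS-Myo-EVs. It also called mir-122 higher (1.47, adjusted p = 0.0132), at 6 and 4 counts against 18 and 14. Both entries had normalized values below 10 in each Myo-EV library, at 3.0 and 4.8 for mir-451a and 6.0 and 4.8 for mir-122. They thus passed the filter on a mean of 10 only through FFSS-Myo-EVs, and their calls carry no weight. Of all 354 tested entries 12.1% were called higher. The part of these cells or of serum in the result was not tested.

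The normalized values of mir-26 were lower in vesicles than in either cell type. The Myo-EV mean of mir-26a-1 was 0.363 of the OB value (0.344 and 0.382 in its 2 libraries) and 0.316 of the BM value. The Myo-EV mean of mir-26b was 0.376 of OB and 0.176 of BM. All 3 members were thus at least 2-fold lower in Myo-EVs than in OB, as were 39.8% of 422 entries, and than in BM, as were 42.0% of 393. The median entry had a ratio of 0.808 to OB and 0.907 to BM.

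FFSS-Myo-EVs lay nearer to the cells. Their mean was 0.626 of OB for mir-26a-1 and 0.617 of OB for mir-26b, and 0 of the 3 members was 2-fold lower, against 33.7% of 427 entries. The median entry had a ratio of 0.851. Against BM, mir-26a-1 in FFSS-Myo-EVs was at 0.546 and mir-26b at 0.288, so that mir-26b alone passed 2-fold, as did 37.4% of 393 entries, whose median ratio was 0.82. With each library scaled to a total of 1000000, the ratio of mir-26a-1 to BM was 0.443 and passed 2-fold too. OB and BM had no replicates, and no test was made against them.

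Between the cells, mir-26b differed more than mir-26a. The OB value of mir-26a-1 was 0.872 of that in BM (counting interval 0.86 to 0.884), and its direction depended on the scaling, since median-of-ratios factors gave 1.01 for it and for mir-26a-2. The OB value of mir-26b was 0.468 of that in BM (counting interval 0.459 to 0.477), past 2-fold as were 29.3% of 406 entries, whose median ratio was 0.78. After TMM scaling over the 6 libraries it was 0.51, and after median-of-ratios scaling 0.541, both short of 2-fold. A single library per cell type gives no error between animals or cultures, and BM is a mixture in which fewer cells of a type and less RNA per cell cannot be told apart.

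The balance between mir-26b and mir-26a-1 can be read within a library, where no scaling enters. It is a ratio of precursor entries, whose counts are not split into 5p and 3p strands. The mir-26a-2 entry is left out of it. If reads of the shared 5p strand were divided between the mir-26a copies, the ratio of mir-26b to all mir-26a reads would be lower. The count of mir-26b per count of mir-26a-1 was 0.387 in OB, 0.721 in BM, 0.437 and 0.361 in Myo-EVs, with 0.372 and 0.39 in FFSS-Myo-EVs. BM was the highest by 1.87-fold over OB and by 1.65-fold to 2.00-fold over the EV libraries, and its exact 95% counting interval, 0.712 to 0.73, touched no other. OB and the FFSS-Myo-EV libraries lay between the Myo-EV libraries.

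The shear comparison left this balance within the replicate spread. The mean ratio was 0.381 ± 0.0127 in FFSS-Myo-EVs and 0.399 ± 0.0535 in Myo-EVs (SD, n = 2), a log2 difference of -0.06, with p = 1.0 in a two-sided exact permutation test whose smallest possible p is 0.333. The Myo-EV libraries differed from each other beyond counting error, with intervals of 0.419 to 0.455 and 0.343 to 0.38, and without the first the log2 difference was 0.08. Of the reads of mir-26a-1 and mir-26b together, with mir-26a-2 left out, mir-26b made up 27.9% in OB, 41.9% in BM, 30.4% and 26.5% in Myo-EVs, with 27.1% and 28.1% in FFSS-Myo-EVs. Counts were not divided by length, and all mature strands of both entries have 21 or 22 bases.

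**Figure D4:**
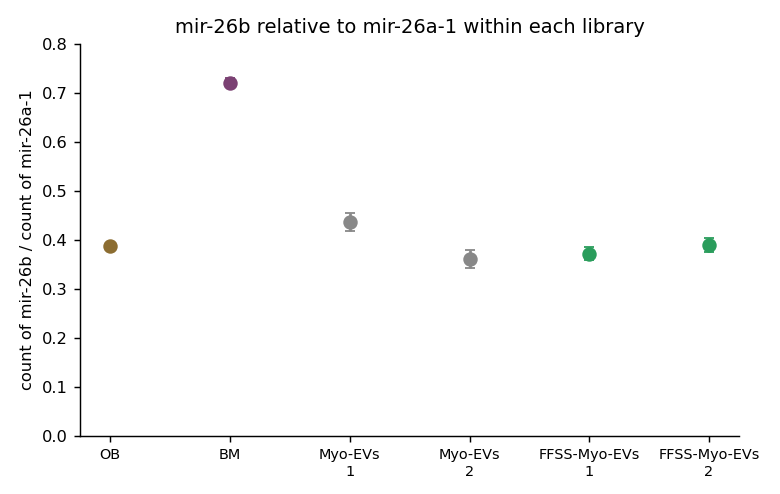
Count of mir-26b divided by the count of mir-26a-1 in each of the 6 libraries (linear axis from 0, bars: exact 95% counting interval, smaller than the point in OB and BM). BM stands at 0.721, and the other 5 libraries lie between 0.361 and 0.437 with both FFSS-Myo-EV points between the Myo-EV points.

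Likeness of pattern was measured over the 6 libraries as the root mean square difference of log2(normalized value + 1), each entry centred on its own mean, among the 243 other entries with a mean of at least 100. Nearest to mir-26a-1 were mir-27a (0.28), mir-1843a (0.293), mir-181a-1 (0.3), mir-361 (0.307) and mir-1843b (0.325). The entry mir-26b lay at 0.343 from mir-26a-1, with 6 entries nearer. Nearest to mir-26b were mir-27a (0.262), mir-3068 (0.272), mir-425 (0.279), mir-29a (0.328) and mir-361 (0.349). Thus mir-27a came first for both, with Pearson's r of 0.922 to mir-26a-1 and 0.967 to mir-26b over 6 libraries, of which 4 are EVs of 1 cell line.

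The entry nearest to both was followed through the libraries. The normalized value of mir-27a was 11668.5 in OB, 18291.4 in BM, 4888.6 and 4777.5 in Myo-EVs, with 6068.9 and 5708.1 in FFSS-Myo-EVs. Its log2 fold change in FFSS-Myo-EVs was 0.16 (SE 0.134), with an adjusted p of 0.409 in edgeR's quasi-likelihood test. Over all 8 distinct neighbours this change ran from -0.1 for mir-29a to 0.36 for mir-1843a. Of the 8, 0 passed the threshold with edgeR, DESeq2 or limma, with 0 at an unadjusted p below 0.05 in edgeR and DESeq2 and 1 in limma. Of all 354 tested entries edgeR called 12.1% higher and 18.4% lower, while DESeq2 called 10.2% and limma 16.1% higher. The 8 neighbours were picked by likeness over the same 6 libraries, OB and BM included. Their difference from the members was not tested.

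**Figure D5:**
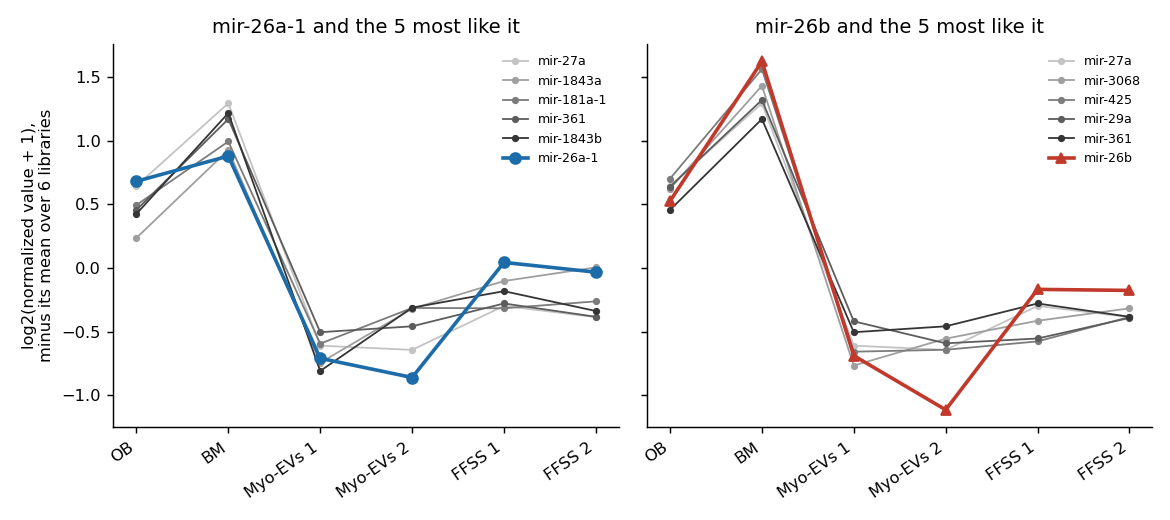
Log2(normalized value + 1) minus its mean over the 6 libraries for mir-26a-1 (left, blue) and mir-26b (right, red), each with the 5 entries most like it in grey, where FFSS 1 and FFSS 2 are the FFSS-Myo-EV libraries. Members and neighbours are high in OB and BM and low in Myo-EVs, and the log2 fold change under FFSS was 0.66 and 0.58 for the members and at most 0.36 for the neighbours, a difference that was not tested.

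Other miRNAs known to act on the same processes were counted by list. Of 6 entries of miRNAs known to repress Ezh2, as miR-26a does, 3 were tested and 0 were called in either direction by edgeR, DESeq2 or limma, with 0 at an unadjusted p below 0.05. Of all 354 entries edgeR called 12.1% higher and 18.4% lower, against 0 of these 3. The entry mir-101b, at 3777.4 and 3486.4 in Myo-EVs against 4023.7 and 4131.0 in FFSS-Myo-EVs, had a log2 fold change of 0.04 (adjusted p = 0.882), and mir-214 had -0.07 (adjusted p = 0.768). The value of mir-101a was -0.11 (adjusted p = 0.757). Their median was -0.07, against -0.02 over all 354 entries. Among the settings run, calls appeared only with 1 Myo-EV library left out, 1 lower without the first and 1 higher without the second.

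Of 24 names of miRNAs that accompany or promote myoblast differentiation, 23 were in the table and 18 were tested. Of these 18, edgeR called 0 higher and 4 lower, beside 12.1% higher and 18.4% lower over all 354. No further entry had an unadjusted p below 0.05 in edgeR. With limma 1 was called higher and 3 lower, beside 57 and 37 of all 354 (pseudocount 1). With DESeq2 1 was called lower, beside 36 higher and 46 lower of all 354, but mir-133a-1 and mir-133a-2 got no adjusted p. The fallers in edgeR were mir-133b, mir-133a-1 and mir-133a-2, muscle miRNAs known for their part in myoblast growth, and mir-503, known to restrain the cell cycle. The count of mir-133a-1 was 19 and 16 in Myo-EVs against 10 and 4 in FFSS-Myo-EVs, and that of mir-133a-2 was 17 and 17 against 6 and 4. In FFSS-Myo-EVs their normalized values were 10.0 and 4.4 for mir-133a-1 and 6.0 and 4.4 for mir-133a-2. Both thus reached the filter on a mean of 10 only through Myo-EVs, and their calls carry no weight. As numbered copies of 1 name, these 2 entries may not be independent observations. The normalized value of mir-133b was 45.2 and 35.9 in Myo-EVs against 13.9 and 12.2 in FFSS-Myo-EVs, at a level far under that of mir-26 (log2 fold change -1.75, adjusted p = 0.000139 in edgeR). The calls of mir-133b and mir-133a-2 held with each EV library left out in turn. The call of mir-133a-1 (-1.49, adjusted p = 0.00647) was lost without either Myo-EV library or without the second FFSS-Myo-EV library, with adjusted p-values of 0.0567, 0.0629 and 0.261. That of mir-503 (-0.4, adjusted p = 0.0284) was lost with library totals (adjusted p = 0.169), the authors' scaling (0.241), DESeq2 (0.0989) and limma (0.273 and 0.278), and without the second Myo-EV (0.0789), the first FFSS-Myo-EV (0.129) or the second FFSS-Myo-EV library (0.615).

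Abundant myogenic miRNAs had changes that did not pass the test, mir-503 aside. The log2 fold change was 0.24 for mir-27b (adjusted p = 0.286), 0.16 for mir-27a and -0.22 for mir-378a (adjusted p = 0.209). The median of the 18 was -0.03, close to the -0.02 of all tested entries. With 1 EV library left out in turn, the median of the 18 ranged from -0.17 (without the first Myo-EV library) to 0.18 (without the second).

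Of 27 miRNAs known to act on osteoblast differentiation, all were in the table and 18 were tested, of which edgeR called 1 higher and 4 lower, beside 12.1% and 18.4% over all 354. At an unadjusted p below 0.05 in edgeR, 1 was higher and 6 were lower. With limma 1 was called higher and 4 lower, beside 57 and 37 of all 354 (pseudocount 1). DESeq2 called 1 higher and 2 lower, beside 36 and 46 of all 354, but it gave mir-133a-1 and mir-133a-2 no adjusted p. The median log2 fold change was -0.19, against -0.02 over all 354 entries. With the authors' scaling it was -0.06, but that scaling raises the log2 fold change of tested entries by 0.12 at the median. Without the first Myo-EV library it was -0.04. The riser was mir-23a, which is known to repress Runx2, at 1751.7 and 1923.5 in Myo-EVs against 2907.9 and 2879.5 in FFSS-Myo-EVs (log2 fold change 0.53, SE 0.126, adjusted p = 0.000222). As with mir-26, its call was lost without the first FFSS-Myo-EV library (adjusted p = 0.0782). The fallers were both mir-133a entries, mir-34c (-0.59, adjusted p = 0.00187), a p53 target known to act on the Notch pathway, and mir-24-2 (-0.56, adjusted p = 0.000222), which shares a cluster with mir-23a and mir-27a. The mir-133a entries had few counts and reached the filter only through Myo-EVs, as given above, and may not be independent. The calls of mir-34c and mir-24-2 were lost without either FFSS-Myo-EV library, with adjusted p-values of 0.127 and 0.199 for mir-34c and 0.0705 and 0.113 for mir-24-2.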

How the data were processed

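Small RNA of 6 libraries was sequenced, and the libraries were grouped by the labels' cell type, title and stress. The deposited counts are whole reads that the authors grouped by sequence and matched to miRBase in CLC Genomics Workbench, without normalization. The normalized values are a signal that the authors derived from the counts by conversion to a total of 1000000 and scaling with a trimmed mean. In the deposited values this is 1 constant per library, from 0.397 in BM to 1.2 in the second Myo-EV library. The submitters' processing notes name the build mm10. The miRBase release, the mismatches allowed and the treatment of reads matching several precursors are not given in the sources used here.

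Members and lists were chosen with earlier results of these data known. Fold changes were fitted on the whole table with edgeR 4.0.16 in R 4.3.3 (TMM factors, library size over all entries, quasi-likelihood test, Benjamini-Hochberg adjustment, threshold 0.05, common dispersion 0.0108, infinite prior degrees of freedom), after a test on simulated data. Total counts of 2414132 to 6092460 set the counting intervals (Clopper-Pearson, scipy 1.17.1). Named were the members, miRNAs of the same seed, the 5 entries most like mir-26a-1 and mir-26b, and, of each list, the 2 highest and 2 lowest with a mean of at least 100, or all tested where fewer. Outside that rule, mir-133a-1, mir-133a-2 and mir-133b were named as called entries after their values were seen, and marker miRNAs were named to check the labels. Alternatives were library totals, median-of-ratios and the authors' scaling, no filter, a mean of at least 100, DESeq2 1.42.0, limma 3.58.1 with pseudocounts of 1 and 10, the replicate number as a block, and each EV library left out. Positions came from GENCODE M21, sequences from RefSeq (GRCm38.p6).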

Additional observations from a re-analysis of the deposited data

How the results depend on the processing

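All 3 members kept an adjusted p below 0.05 and their direction under the 9 alternatives of scaling, filter, test and block, with log2 fold changes of 0.61 to 0.79 for mir-26a-1, 0.61 to 0.79 for mir-26a-2 and 0.53 to 0.73 for mir-26b, and adjusted p-values of at most 0.000619, 0.000677 and 0.00363. With each EV library left out they ranged from 0.57 to 0.80, from 0.56 to 0.80 and from 0.43 to 0.88, and 3 of the 4 fits made the call, the exception being the fit without the first FFSS-Myo-EV library (0.57, 0.56 and 0.52), in which the lone library of that group is assumed to vary like the others and the cause was not tested. The number of entries called was 82 to 111 under the 9 alternatives and 44 to 132 with a library left out. Replicate numbers are shared by the EV groups, but no source says that they pair libraries, and the deviations of same-numbered libraries correlated by 0.21 over entries. With the replicate number as a block the log2 fold change was 0.67, 0.66 and 0.60 and 110 entries were called. The log2 difference of the mir-26b to mir-26a-1 ratio was -0.198 to 0.0762 with a library left out, and turned only without the first Myo-EV library (0.0762).

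Ratios to the cells moved with the scaling. With library totals, median-of-ratios and TMM in turn, FFSS-Myo-EVs to OB was 0.601, 0.509 and 0.561 for mir-26a-1 and 0.592, 0.5002 and 0.552 for mir-26b. FFSS-Myo-EVs to BM was 0.443 and 0.513 (library totals, median-of-ratios) for mir-26a-1 and 0.234, 0.271 and 0.281 for mir-26b. Myo-EVs to OB was 0.322 (median-of-ratios), and Myo-EVs to BM 0.265 (library totals) and 0.351 (TMM), all for mir-26a-1. OB to BM was 0.737, 1.01 and 0.951 for mir-26a-1, 1.01 with median-of-ratios for mir-26a-2, and 0.395, 0.541 and 0.51 for mir-26b. A mean of at least 1000 kept 3 of the 5 entries most like each of mir-26a-1 and mir-26b, since the filter removes the others, and TMM kept all 5. With 1 library each, OB and BM bear no test, and each EV group has 2 libraries.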
